A study of Mus musculus with 10 samples.

Results

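The nuclear-encoded subunits of the mitochondrial respiratory chain were examined in RNA-seq of the ventral hippocampus (vHpc) of ovariectomized (OVX) female mice. Members were rows whose gene symbol starts with Nduf, Uqcr, Atp5 or Cox followed by a digit from 4 to 8, together with Sdha, Sdhb, Sdhc, Sdhd and Cycs; Cox8b was left out by the rule. Of 24421 rows, 92 had such a symbol, and 89 of these had a mean of at least 0.5 counts per 1000000 counted reads (CPM), as did 15081 rows in all. The 89 were 35 subunits of complex I (7 core and 28 accessory), 4 of complex II, 8 of complex III, 17 of complex IV, 15 of complex V, cytochrome c (Cycs) and 9 factors that share a name but are not subunits (the complex I assembly factors Ndufaf1 to Ndufaf7, with Atp5s and Atp5sl). Ndufa4 and its paralog Ndufa4l2 were placed in complex IV, where the Ndufa4 protein is found. Subunits encoded by mitochondrial DNA had no row under symbols such as mt-Cytb and were not analysed here. The sums per complex leave them out.

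The respiratory chain passes electrons from NADH (complex I) and succinate (complex II) through complex III and cytochrome c to oxygen at complex IV, and pumps protons that drive ATP synthesis by complex V. Each of the complexes I and III to V is assembled from subunits of both genomes, whereas complex II is built from nuclear genes alone. Neurons rely on this pathway for most of the ATP spent on ion gradients and synaptic transmission.

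WT mice (C57BL/6) carried the Val form of brain-derived neurotrophic factor (BDNF) on both alleles, and Het-Met mice were heterozygous for the BDNF Val66Met knock-in. All mice were females ovariectomized as young adults and given 2 weeks to recover. E2 add-back was 300 nM 17β-estradiol in 0.1% ethanol, about 0.7 µg per day, taken in drinking water for 6 weeks; vehicle was 0.1% ethanol. Of the 10 libraries, WT mice gave 2 per treatment and Het-Met mice 3 per treatment. Each library pooled the RNA of 2 animals, so differences between single mice cannot be seen. The knock-in is present throughout the body, and gene-level values do not show which Bdnf allele was read.

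Libraries held 19820184 to 23267410 reads counted on genes. The neuronal markers summed to 11995 to 12936 CPM and all 10 hippocampal markers were present. Over both treatments 5 hippocampal markers were higher in Het-Met mice and 5 lower, with log2 fold changes of -0.80 to 0.20. Of the 10, 1 reached an unadjusted p below 0.05 (limma) downwards (7.27% of all genes) and 0 upwards (9.33%). In the interaction of genotype and E2, 1 of the 10 passed the call rule given below (0.0729% of all genes). Their part in the results on the members was not tested. Choroid plexus markers ranged from 153 to 2533 CPM over WT and from 268 to 3271 CPM over Het-Met libraries, with none of the 11 listed genes at 0 throughout. Over both treatments 4 of the 11 had a positive genotype difference (median log2 fold change -0.02), but within each treatment they moved together, as given beside those comparisons. With these markers as a covariate, the median genotype difference of the members over both treatments was 0.16 (log2), as without it. Of 7 microglial markers, 6 were higher in Het-Met mice over both treatments (57.3% of all genes were). An unadjusted p below 0.05 (limma) was reached upwards by 3 (9.33% of all genes). Their sums were 330 to 347 CPM in WT and 337 to 387 CPM in Het-Met libraries. Their median log2 fold change was 0.09. With the gene length trend of each library removed, as described below, it was 0.02, with 5 of 7 higher and 1 at that threshold upwards. The part of these markers in the results on the members was not tested. In bulk tissue, fewer cells of a type and less RNA per cell cannot be told apart.

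The members were among the more abundant transcripts of the vHpc. Together they took 8226 to 10390 CPM of a library, and their median level per length was 69.3 CPM per kb of exon, against 7.58 CPM per kb over all genes tested. By complex, the median was 65.5 CPM per kb for complex I, 79.5 for complex II, 116 for complex III, 91.2 for complex IV and 95.6 for complex V. The factors, which help to assemble the complexes and are not part of the finished enzymes, lay lower, with a median of 15.6 CPM per kb. Summed over their members and not scaled by length, complex I came to 2269 to 2962 CPM per library, complex II to 607 to 736 CPM, complex III to 759 to 939 CPM, complex IV to 1600 to 2162 CPM and complex V to 2737 to 3326 CPM.

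**Figure D1:**
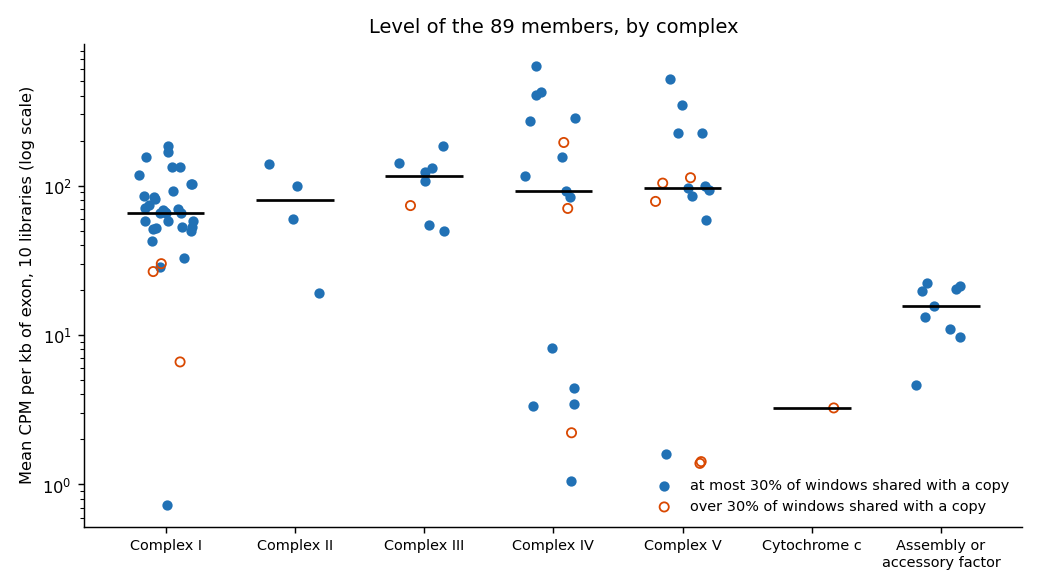
Mean level of each of the 89 members over 10 libraries, in CPM per kb of exon on a log axis, by complex; points are genes and bars are medians. Medians of complexes I to V lie between 65.5 and 116 CPM per kb, and open circles mark genes that share over 30% of their 75-base windows with a copy elsewhere in the genome.

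Cox8a, a small subunit of cytochrome c oxidase (complex IV), was the highest member at 631 CPM per kb. Next came Atp5b, the catalytic beta subunit of ATP synthase, at 515 CPM per kb, and Cox4i1, a regulatory subunit of complex IV, at 419 CPM per kb. In complex I the highest was the accessory subunit Ndufb9 at 185 CPM per kb, in complex II the flavoprotein Sdha at 140 CPM per kb, and in complex III the hinge protein Uqcrh at 182 CPM per kb. At the other end were Ndufab1, the mitochondrial acyl carrier protein, at 0.731 CPM per kb, Cox4i2 at 1.06, Atp5g2 at 1.38, and, as the lowest of their complexes, Sdhc at 19.2 and Uqcrq at 49.5 CPM per kb. The level of Ndufab1 was taken over 3479 bases of annotated exon. Cycs lay at 3.25 CPM per kb over 3123 bases. Of the windows of Cycs, 30.8% occur in transcripts of genes at other loci. The part of read assignment in its level was not tested.

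Several subunits have paralogs for other tissues, and the vHpc used mainly 1 gene of each set. Cox4i1 took 99.6 to 99.9% of the length-scaled level that it shares with Cox4i2, an isoform known from lung. Cox6a1 took 97.1 to 99.0% against Cox6a2, the heart and muscle isoform, and Cox7a2 took 96.9 to 98.3% against the muscle isoform Cox7a1. Cox6b1 took 98.0 to 98.9% against Cox6b2, known from testis. These shares overlapped between WT and Het-Met libraries in every set. Among the genes for subunit c of the ATP synthase ring, whose mature proteins are identical, Atp5g3 took 98.3 to 99.1%, and Ndufa4 took 98.3 to 99.1% against Ndufa4l2, a gene known to be induced by hypoxia. Cox8c, known from testis, was listed at 0 in all 10 libraries and Cox7b2 averaged below 0.5 CPM. For the subunit c genes the share may depend on read assignment, which was not tested. It also depends on annotated exon length, 4778 bases for Atp5g1 and 724 for Atp5g3. Before scaling, these 2 genes averaged 7.67 and 163 CPM. Of the 75-base windows of Atp5g2, 86.9% occur, with at most 2 mismatches, in transcripts of genes at other loci.

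Ndufs5, a subunit of complex I, was listed at 0 reads in every library. A read count of 0 in these libraries allows up to 3 reads, which is 0.129 to 0.151 CPM. Its retrocopy BC002163, annotated by GENCODE as a processed pseudogene on another chromosome, was listed at 32.7 and 33.7 CPM in vehicle-treated WT, 34.0 and 33.4 CPM in E2-treated WT, 45.4, 36.4 and 38.2 CPM in vehicle-treated Het-Met and 37.2, 48.4 and 40.1 CPM in E2-treated Het-Met libraries. The 6 Het-Met values of BC002163 thus all lay above the 4 WT values, with a log2 fold change of 0.28 (SE 0.08) and an adjusted p of 0.136 by limma. BC002163 is not a member by name and was looked up after the 0 of Ndufs5 was seen. Of the 75-base windows of the Ndufs5 transcript, 54.3% occur in BC002163 with at most 2 mismatches, including a coding run of 213 bases without any. A similar arrangement was found for Cox7c, a small subunit of complex IV. It was listed at 0.892 to 1.06 CPM in WT and 1.01 to 1.76 CPM in Het-Met libraries, while Gm12338, a retrocopy that shares 25.3% of its windows and holds a run of 189 coding bases without mismatch, was listed at 8.52 to 9.76 CPM in WT and 9.23 to 14.3 CPM in Het-Met libraries (log2 fold change 0.25, SE 0.10, adjusted p = 0.239). Gm10012, the copy that shares the most windows of Cox7c (52.1%), averaged 0.047 CPM. The next lines give the first 75 coding bases of Ndufs5, Cox7c and Atp5l (subunit g of ATP synthase). These 3 genes were chosen because their listed levels may depend on where such reads were assigned. How they were assigned is not stated in the sources used here, and its part was not tested. Each stretch is the length of a read here and is found letter for letter in the copy named beside it, so no base is in capitals.
Ndufs5 and BC002163: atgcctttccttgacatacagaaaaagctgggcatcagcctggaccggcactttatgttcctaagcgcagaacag
Cox7c and Gm12338: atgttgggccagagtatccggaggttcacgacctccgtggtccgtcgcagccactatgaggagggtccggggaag
Atp5l and Atp5l2-ps: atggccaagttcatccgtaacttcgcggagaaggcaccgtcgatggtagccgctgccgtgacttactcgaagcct
In GRCm38 the copies lie at chr16:42955631-42955949 (BC002163, plus strand), chr11:75599763-75599954 (Gm12338, minus strand) and chr11:97768060-97768371 (Atp5l2-ps, plus strand), whereas Ndufs5 lies at chr4:123712710-123718202 on the minus strand.

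Among the 92 rows, 41 shared at least 1 such window with a gene at another locus and 14 shared over 30% of them. The 13 of these that passed the level filter had a median of 29.99 CPM per kb, against 69.8 CPM per kb for the other 76. The median log2 fold change of Het-Met against WT over both treatments was 0.14 for the 13 and 0.16 for the 76.

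The comparison of Het-Met with WT asked whether respiratory chain transcripts differed with the BDNF genotype. Over both treatments, no member passed the call rule (adjusted p below 0.05 and fold change above 1.3, limma), where 0.0265% of all genes did. The members nevertheless leaned one way: 83 of 89 had a positive log2 fold change (57.3% of all genes did), and 46 reached an unadjusted p below 0.05 upwards and 0 downwards (9.33% and 7.27% of all genes). The median log2 fold change was 0.16, against 0.02 over all genes tested. In 18 members all 6 Het-Met libraries lay above all 4 WT libraries (2.63% of all genes), and in 0 members all lay below (1.72%).

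The members of every complex had mostly positive values. All 35 members of complex I had a positive log2 fold change (median 0.16), as did all 4 of complex II (median 0.11) and all 8 of complex III (median 0.14). In complex IV 15 of 17 (median 0.18), in complex V 13 of 15 (median 0.17) and among the factors 7 of 9 (median 0.14) did so. Within complex I the 7 core subunits, which carry the flavin and the iron-sulfur clusters or bind quinone, had a median of 0.12 and the 28 accessory subunits a median of 0.19; the difference between complexes or between these classes was not tested. Members with a negative value, named after their values were seen, were Cox6a2, Cox4i2, Atp5g2, Atp5l, Ndufaf1 and Ndufaf6, of which all but Ndufaf1 averaged below 6 CPM; none of the 6 reached an unadjusted p below 0.05.

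**Figure D2:**
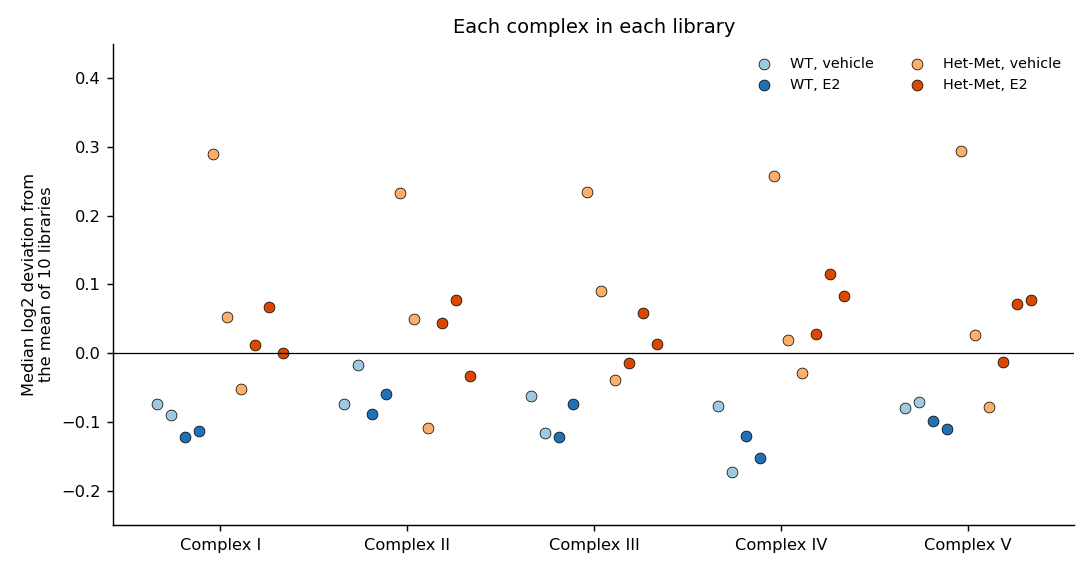
Median log2 deviation of the members of each complex from the mean of the 10 libraries, 1 point per library, coloured by group. In each complex the 4 WT libraries lie below 0 and the vehicle-treated Het-Met library replicate 1 is the highest point. Vehicle-treated Het-Met replicate 3 lies below the WT libraries in complex II and among them in complex V.

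The library of vehicle-treated Het-Met mice numbered replicate 1 stood highest for the members, 0.28 above the mean of the 10 libraries (median log2 deviation). The other Het-Met libraries lay at 0.04 and -0.05 under vehicle and at 0.01, 0.07 and 0.01 under E2. WT libraries lay at -0.08 and -0.09 under vehicle and at -0.12 and -0.11 under E2. For the members as a whole the 6 Het-Met libraries thus lay above the 4 WT libraries. This did not hold in every complex. Vehicle-treated Het-Met replicate 3 was the lowest of the 10 libraries in complex II, at -0.11. It lay among the WT libraries in complex V, at -0.08, and for the factors, at -0.04. Without replicate 1 of vehicle-treated Het-Met mice, the median log2 fold change over both treatments was 0.11, with 78 of 89 members positive and 36 at an unadjusted p below 0.05. The share of all genes was not taken for that fit.

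The 4 members of complex I with the smallest unadjusted p were accessory subunits. Ndufa13, which is also known as a cell death regulator, was at 98.5 and 94.9 CPM in vehicle-treated WT, 93.2 and 91.8 CPM in E2-treated WT, 135, 114 and 110 CPM in vehicle-treated Het-Met, and 112, 108 and 102 CPM in E2-treated Het-Met libraries. Every Het-Met library exceeded every WT library, with a log2 fold change of 0.26 (SE 0.06, adjusted p = 0.120). Ndufa1, a small subunit encoded on the X chromosome, was at 46.1 and 52.1 CPM, then 48.2 and 49.1 CPM in WT, and at 69.7, 58.4 and 57.9 CPM, then 58.5, 61.8 and 52.6 CPM in Het-Met libraries, in the same order of groups. The groups did not overlap, although the lowest Het-Met and the highest WT value were close, and the log2 fold change was 0.29 (SE 0.07, adjusted p = 0.121). Ndufb11, also X-linked and part of the membrane arm, ranged from 51.8 to 54.5 CPM in WT and from 59.1 to 73.4 CPM in Het-Met libraries without overlap (log2 fold change 0.23, SE 0.06, adjusted p = 0.126). Ndufb9 overlapped, at 110 to 125 CPM in WT and 124 to 164 CPM in Het-Met libraries (log2 fold change 0.26, SE 0.07, adjusted p = 0.126).

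Among the core subunits of complex I, Ndufv1, which binds NADH, had a log2 fold change of 0.15 (SE 0.05, adjusted p = 0.155), and Ndufs3 had 0.14 (SE 0.06); these were the 2 core subunits with an unadjusted p below 0.05. Ndufs1, the largest subunit, was at 124 to 136 CPM in WT and 124 to 150 CPM in Het-Met libraries, a log2 fold change of 0.03 (SE 0.06). Ndufs7, Ndufs8 and Ndufv2 had log2 fold changes of 0.07, 0.12 and 0.15, each with an unadjusted p above 0.05.

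In complex II the smallest p-values belonged to Sdhb, the iron-sulfur subunit, and Sdhd, a membrane anchor. Sdhb was at 101 to 113 CPM in WT and 105 to 137 CPM in Het-Met libraries (log2 fold change 0.15, SE 0.07), and Sdhd at 64.7 to 71.6 CPM and 67.2 to 85.1 CPM (log2 fold change 0.14, SE 0.06). The groups overlapped for both genes. Sdha, the catalytic flavoprotein and the most abundant of the 4, was at 391 to 421 CPM in WT and 377 to 442 CPM in Het-Met libraries, with a log2 fold change of 0.02 (SE 0.05) that turned slightly negative under several scalings.

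In complex III, Uqcr10, a small subunit of the cytochrome bc1 complex, was at 63.7 and 60.1 CPM in vehicle-treated WT, 62.4 and 59.6 CPM in E2-treated WT, 82.2, 73.0 and 68.0 CPM in vehicle-treated Het-Met and 66.8, 69.7 and 71.9 CPM in E2-treated Het-Met libraries. All 6 Het-Met values were above all 4 WT values (log2 fold change 0.22, SE 0.06, adjusted p = 0.126). Uqcrh reached 142 CPM in E2-treated Het-Met replicate 3, against 86.8 to 109 CPM in the other Het-Met and 82.2 to 94.2 CPM in WT libraries (log2 fold change 0.34, SE 0.10). The core proteins Uqcrc1 and Uqcrc2 had log2 fold changes of 0.02 and 0.03.

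In complex IV, Cox7a2l had the smallest p of all members. Its product has been linked to supercomplexes of complexes III and IV, which were not measured in these mice. The gene lies at chr17:83501918-83517330 on the minus strand of GRCm38. It was at 83.9 and 85.0 CPM in vehicle-treated WT, 89.6 and 86.2 CPM in E2-treated WT, 113, 98.3 and 101 CPM in vehicle-treated Het-Met, and 96.5, 103 and 107 CPM in E2-treated Het-Met libraries. The lowest Het-Met value exceeded the highest WT value, and the log2 fold change was 0.26 (SE 0.05, unadjusted p 0.00026, adjusted p = 0.110). Ndufa4 was at 142 to 150 CPM in WT and 159 to 213 CPM in Het-Met libraries, again without overlap (log2 fold change 0.27, SE 0.07).

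In complex V, Atp5e, the epsilon subunit of the central stalk, was at 34.9 and 34.1 CPM in vehicle-treated WT, 36.7 and 34.3 CPM in E2-treated WT, 54.9, 44.4 and 37.7 CPM in vehicle-treated Het-Met, and 40.4, 43.0 and 42.1 CPM in E2-treated Het-Met libraries. Atp5c1, the gamma subunit of the same stalk, was at 160 to 169 CPM in WT and 171 to 210 CPM in Het-Met libraries. Neither overlapped, with log2 fold changes of 0.31 (SE 0.08) and 0.19 (SE 0.06). The abundant catalytic subunits Atp5a1 and Atp5b had log2 fold changes of 0.04 (SE 0.05) and 0.05 (SE 0.06). Cytochrome c, the mobile electron carrier between complexes III and IV, was at 8.44 to 9.11 CPM in WT and 9.37 to 13.6 CPM in Het-Met libraries without overlap (log2 fold change 0.34, SE 0.10, adjusted p = 0.146).

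**Figure D3:**
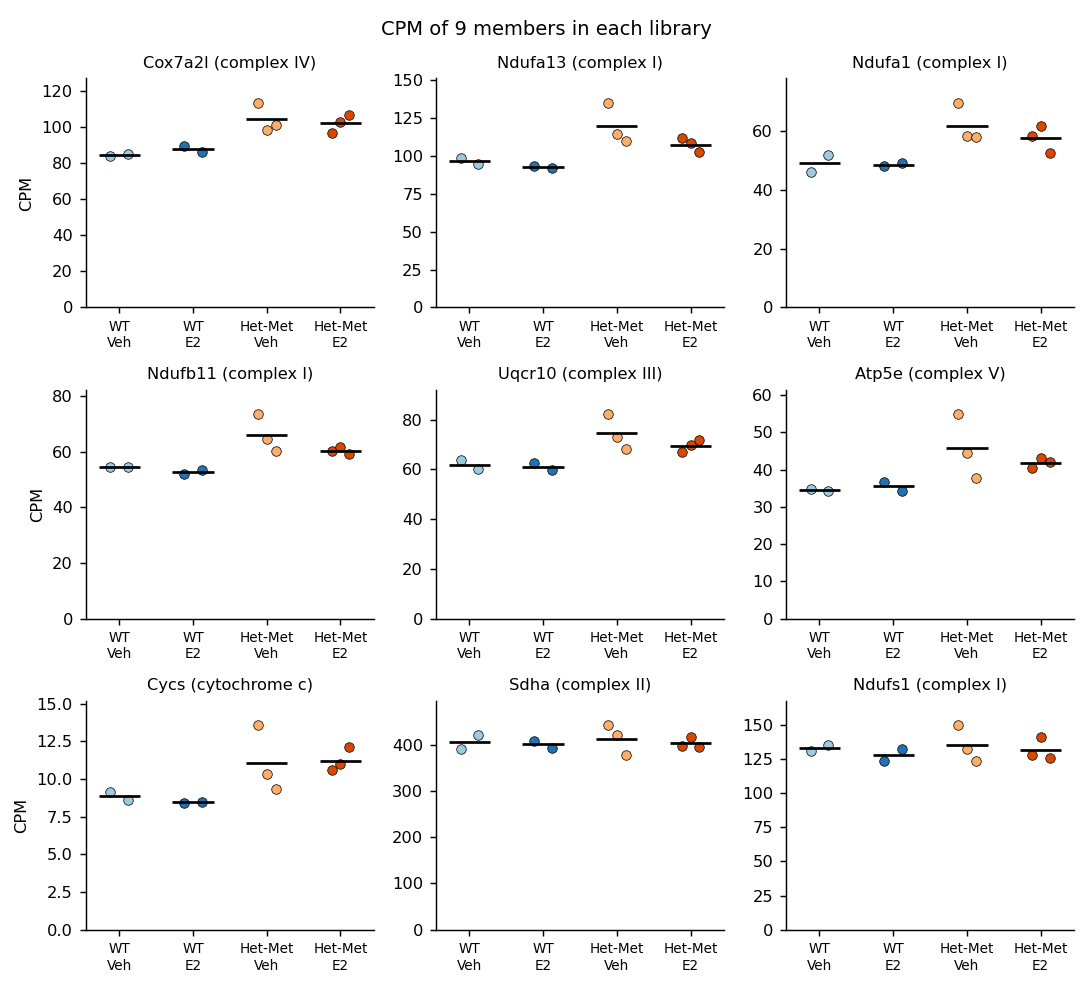
CPM of 9 members in each library; points are libraries, bars are group means, and each axis starts at 0. Cox7a2l, Ndufa13, Ndufa1, Ndufb11, Uqcr10, Atp5e and Cycs do not overlap between genotypes, while Sdha and Ndufs1 do.

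A count model on the recovered reads, DESeq2, gave an adjusted p below 0.05 to 10 members, all higher in Het-Met mice (0.431% of all genes were higher at that threshold). They were Cox7a2l, Ndufa13, Ndufa1, Cox6c, Ndufa4, Uqcrh, Ndufb9, Atp5e, Ndufa3 and Ndufa8, listed for that result, none with a fold change above 1.3. The quasi-likelihood test of edgeR on the same reads gave an adjusted p below 0.05 to 0 members and an unadjusted p below 0.05 upwards to 39. The share of all genes at that unadjusted threshold was not taken for edgeR.

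**Figure D4:**
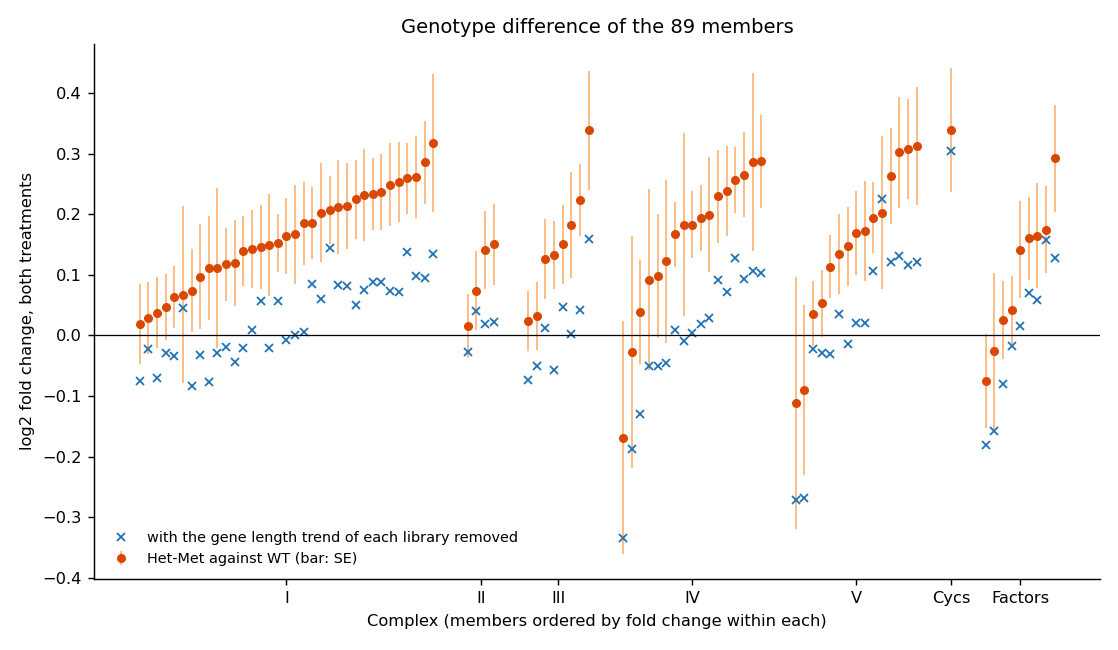
log2 fold change of each of the 89 members, Het-Met against WT over both treatments, ordered within each complex; circles with SE are the values of the comparison and crosses are the same values after the gene length trend of each library was removed. The median is 0.16 for the circles and 0.02 for the crosses.

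The genotype difference went with transcript length across the whole table. Over 14977 genes with a known exon length, the log2 fold change correlated with log length at a Pearson r of -0.43 and a Spearman rho of -0.51, a description across genes that share the same 10 libraries. Over the 89 members the values were -0.33 and -0.41. The members are short, with a median exon length of 931 bases against 3163 for all genes tested. Below 500 bases the median log2 fold change was 0.11 over 104 genes and 0.29 over 7 members, all 7 of them positive. Genes of 500 to under 1000 bases had a median log2 fold change of 0.16 over all 715 such genes, 83.6% of them positive, and the 42 members in this range had a median of 0.18. From 1000 to under 2000 bases the medians were 0.10 for all 2934 genes and 0.14 for the 29 members, and from 2000 to under 4000 bases they were 0.04 for 5948 genes and 0.06 for the 10 members. From 4000 to under 8000 bases the median was -0.04 for 4385 genes, and the 1 member in this range was at 0.20. Genes of 8000 bases or more, with 0 members, had a median of -0.13. The slope of expression on log length was -0.094 in vehicle-treated Het-Met replicate 1, between -0.025 and 0.003 in the other Het-Met libraries, and between 0.012 and 0.054 in WT libraries, so it also separated the genotypes without overlap.

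**Figure D5:**
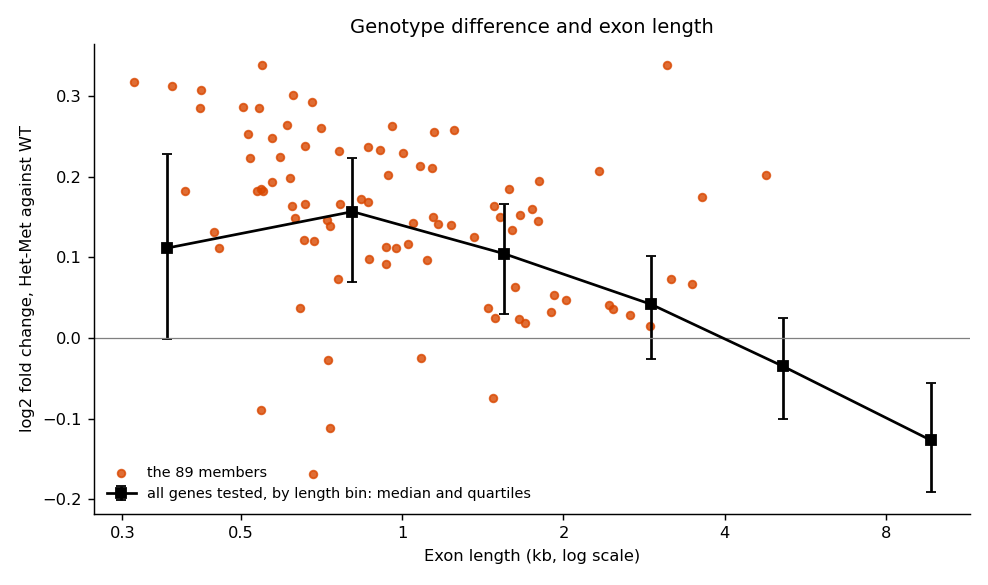
log2 fold change (Het-Met against WT, both treatments) against exon length in kb on a log axis. Orange points are the 89 members; black squares are medians of all genes tested in bins of length, with quartiles as bars, falling from 0.16 at 500 to under 1000 bases to -0.13 at 8000 bases and above.

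When the length trend of each library was removed before the fit, the median of the members was 0.02 and 53 of 89 were positive (50.0% of all genes). An unadjusted p below 0.05 was reached upwards by 6 (3.69% of all genes) and downwards by 1 (835 of 15081 genes). The 1 downwards, named for that result, was Ndufaf1 (-0.18, SE 0.07, adjusted p = 0.407 by limma). The 6, listed for that result, were Cycs, Ndufb8, Cox7a2l, Ndufa13, Atp5c1 and Ndufaf4. All 6 were among the 40 members with at least 1 kb of exon, and 0 of the 49 shorter members reached that threshold upwards. Cycs was at 0.30 (SE 0.10) against 0.34 before, with an adjusted p of 0.332 (limma). Its exon length of 3123 bases is near the median of all genes tested, 3163, so there was little length trend to remove from it. Of the windows of Cycs, 30.8% are shared with genes at other loci, most of them with Gm10053. The part of read assignment in the difference of Cycs was not tested. Cox7a2l fell to 0.13 (SE 0.04) and Ndufa13 to 0.14 (SE 0.05). Genotype and the length trend of a library cannot be told apart in this design.

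Each treatment was also read on its own. Under vehicle 0 members were called (0.00663% of all genes), the median log2 fold change was 0.17, and 81 of 89 were positive (55.3% of all genes). An unadjusted p below 0.05 was reached upwards by 28 (5.85%) and downwards by 1 (4.83%). The smallest belonged to Cox7a2l (0.30, SE 0.08, adjusted p = 0.262), Ndufa13 (0.30, SE 0.08) and Ndufa1 (0.33, SE 0.10). Without the vehicle-treated Het-Met replicate 1 the median was 0.08 and 12 members reached that threshold upwards. Without replicate 3 of that group the median was 0.23 and 49 did. Leaving out vehicle-treated WT replicate 3, which keeps 1 library in its group, gave a median of 0.15. The choroid plexus markers were at higher values in Het-Met mice under vehicle, with 11 of 11 at an unadjusted p below 0.05 upwards (median log2 fold change 1.65), and all 6 ependymal markers had positive values (median 0.38). With the choroid plexus markers as a covariate 15 members reached the threshold upwards, the median was 0.17 and 78 of 89 were positive. The share of all genes was not taken for this fit or for the fits without a library. These counts therefore do not show whether the members moved more than other genes.

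Under E2 0 members were called (0.0265% of all genes), the median was 0.17, 82 of 89 were positive (57.3%), and 23 reached an unadjusted p below 0.05 upwards (6.29%) and 0 downwards (5.36%). The smallest belonged to Ndufb9 (0.30, SE 0.10, adjusted p = 0.340), to Atp5k, subunit e of ATP synthase (0.39, SE 0.14), and to Cox7b of complex IV (0.30, SE 0.11). Leaving out E2-treated WT replicate 1 or replicate 2, which keeps 1 library in that group, gave a median of 0.16 each time. That threshold was reached upwards by 10 members without E2-treated Het-Met replicate 2 and by 13 without replicate 3. The count was 38 without vehicle-treated Het-Met replicate 1, a library outside this comparison that enters its estimate of the spread. It was also 38 when only the libraries compared were fitted. Here the choroid plexus markers lay the other way, with 11 of 11 at an unadjusted p below 0.05 downwards (median -1.58), as did all 6 ependymal markers (median -0.66). With the choroid plexus covariate 7 members reached the threshold upwards, the median was 0.14 and 80 of 89 were positive. For these alternative fits the share of all genes was not taken, so the counts do not show whether the members moved more than other genes. The part of these cell types in the results was not tested beyond this covariate.

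All Het-Met libraries lay above all WT libraries in 31 members under vehicle (14.8% of all genes) and below them in 1 (9.89%); under E2 the counts were 55 (21.1%) and 2 (14.7%).

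The effect of E2 add-back was read within each genotype. The choroid plexus markers had a median log2 fold change of E2 against vehicle of 2.06 in WT mice, 11 of 11 at an unadjusted p below 0.05 upwards, and of -1.13 in Het-Met mice, 8 of 11 at that threshold downwards; their part in the results was not tested beyond the covariate. In WT mice 0 members were called (0.0133% of all genes), the median log2 fold change of E2 against vehicle was -0.03, and 34 of 89 were positive (49.0% of all genes). Atp5l was the 1 member with an unadjusted p below 0.05 downwards, and 0 reached it upwards (1.66% and 2.37% of all genes). It was at 1.11 and 1.09 CPM in vehicle-treated and 0.583 and 0.559 CPM in E2-treated WT libraries, which are few reads, and at 0.603 to 0.759 and 0.734 to 0.854 CPM in vehicle- and E2-treated Het-Met libraries. The log2 fold change in WT mice was -0.58 (SE 0.22, adjusted p = 1.00), and 67.4% of the windows of Atp5l are shared with copies. Atp5sl (-0.15, SE 0.09) and Ndufb8 (-0.14, SE 0.09), a complex I accessory subunit, came next.

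In Het-Met mice E2 gave a median log2 fold change of -0.05, with 21 of 89 members positive (51.8% of all genes) and 0 called (0% of all genes). Uqcr11, a small subunit of complex III, was at 72.4, 70.1 and 66.3 CPM under vehicle and 63.2, 61.6 and 56.2 CPM under E2, without overlap. Its log2 fold change was -0.21 (SE 0.07, adjusted p = 0.783). Ndufv1 was at 139, 136 and 130 CPM under vehicle and 118, 128 and 118 CPM under E2, also without overlap (-0.16, SE 0.06, adjusted p = 0.856). These were the 2 members with an unadjusted p below 0.05 downwards, and 0 reached it upwards (2.63% and 2.82% of all genes), and Ndufa13 followed at -0.15 (SE 0.07). Without vehicle-treated Het-Met replicate 1 the median turned to 0.05 with 62 of 89 members positive, 8 at an unadjusted p below 0.05 upwards and 1 downwards, so the direction under E2 rested on that library. Without vehicle-treated Het-Met replicate 3 the median was -0.11, with 0 members at that threshold upwards and 10 downwards. Shares of all genes were not taken for the fits without a library.

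The interaction, which asks whether E2 acted differently in the genotypes, called 0 members (0.0729% of all genes). Its median was -0.03 with 39 of 89 positive (51.4% of all genes), and Atp5l was the 1 member with an unadjusted p below 0.05 (0.68, SE 0.28, adjusted p = 0.810; 2.80% of all genes were higher and 2.62% lower at that threshold). Ndufa4l2 (0.37, SE 0.30) and Ndufs8 (-0.15, SE 0.12) came next.

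Related genes outside the rule were read from lists of the same pathway; over all genes tested, 57.3% had a positive value, 9.33% reached an unadjusted p below 0.05 upwards and 7.27% downwards. Of 6 other subunits or subunit-like proteins in the table, 6 were higher in Het-Met mice over both treatments (median log2 fold change 0.09) and 1 reached an unadjusted p below 0.05, Atpif1, the inhibitor of ATP synthase (0.30, SE 0.08, adjusted p = 0.126). Of 38 assembly factors, 32 were higher (median 0.11), 10 reached that threshold upwards and 1 downwards; the smallest p belonged to Uqcc2, an assembly factor of complex III (0.43, SE 0.11), and Pet100, one of complex IV (0.27, SE 0.09). Of 16 citric acid cycle genes, 14 were higher (median 0.08) and 3 reached it, among them Suclg1, a subunit of succinyl-CoA ligase (0.18, SE 0.07). Of 12 carriers and porins, 11 were higher (median 0.10) and 1 reached it, the porin Vdac3 (0.29, SE 0.11). Of 16 glycolysis genes, 15 were higher (median 0.10) and 3 reached it, with Ldhb first (0.18, SE 0.05). Of 15 regulators of mitochondrial biogenesis, 10 were higher (median 0.06) and 0 reached it upwards, while the coactivators Ppargc1b (-0.41, SE 0.14, adjusted p = 0.171) and Ppargc1a (-0.18, SE 0.08) reached it downwards. No gene on these lists was called. With the length trend removed, the medians of these 6 lists lay between -0.02 and 0.05.

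Promoters were read because many of these genes are known targets of the nuclear respiratory factor NRF1, of ETS-type factors such as GABP, and of YY1. RefSeq windows (GRCm38.p6) from 250 bases before to 50 bases after the start were found for 73 of the 92 rows, 78 windows in all. The NRF1 motif (GCGC, any base N, then TGCGC) was present on either strand in 25.6% of them, against 4.60% of all 32851 promoter windows. The ETS motif CCGGAAGT was present in 6.41% against 3.89%, and the YY1 motif AAGATGGCG in 8.97% against 1.40%. Each motif was counted on its own, and none of the matches of the members overlapped one of another motif. These are letter matches and not shown to be bound in this tissue. The 250 bases upstream of Ndufa11, a complex I accessory subunit, are printed as an example, with the NRF1 match in capitals. The match lay upstream of the start of both the RefSeq and the GENCODE transcript. The same held for matches of other subunits, such as Cox6a1 and Sdhd. The printed bases lie at chr17:56717512-56717761 on the plus strand of GRCm38.p6.
Ndufa11: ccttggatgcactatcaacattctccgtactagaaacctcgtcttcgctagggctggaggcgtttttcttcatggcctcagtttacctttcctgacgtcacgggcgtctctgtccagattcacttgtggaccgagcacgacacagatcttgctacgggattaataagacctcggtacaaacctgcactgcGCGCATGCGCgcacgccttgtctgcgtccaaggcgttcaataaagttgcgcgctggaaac
Ndufa11 was at 39.1 to 44.0 CPM in WT and 43.9 to 55.2 CPM in Het-Met libraries (log2 fold change 0.18, SE 0.07).

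Windows of 30 bases around NRF1 matches before the RefSeq start are shown for 6 members described above, with the match in capitals. They set the sites of genes with larger and smaller genotype differences side by side. By GENCODE coordinates, the matches of Atp5c1 and Atp5g2 and the Sdha match nearest the start lie within the gene. The match of Atp5k overlaps the start of its gene. Sdha, with a log2 fold change of 0.02, holds 3 NRF1 matches, Cox6a1 (0.19) holds 2, and Sdhd (0.14), Atp5c1 (0.19), Atp5k (0.31) and Atp5g2 (-0.11) hold 1 each. Uqcrh (0.34) and Uqcr11 (0.13) hold an ETS match, which is not printed.
Sdha, first: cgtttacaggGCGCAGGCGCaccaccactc
Sdha, next: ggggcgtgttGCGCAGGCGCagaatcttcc
Sdha, nearest the start: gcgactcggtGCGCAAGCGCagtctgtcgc
Sdhd: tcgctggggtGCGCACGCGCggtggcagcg
Atp5c1: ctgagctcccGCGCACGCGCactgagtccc
Atp5k: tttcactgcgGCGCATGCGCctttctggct
Cox6a1, first: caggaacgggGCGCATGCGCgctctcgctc
Cox6a1, nearer the start: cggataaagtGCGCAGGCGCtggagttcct
Atp5g2: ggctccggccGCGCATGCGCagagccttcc
On the minus strand of GRCm38.p6 these lie at chr13:74350319-74350348, chr13:74350276-74350305 and chr13:74350231-74350260 (Sdha), chr9:50603909-50603938 (Sdhd), chr2:10080430-10080459 (Atp5c1), chr5:108434430-108434459 (Atp5k), chr5:115349101-115349130 and chr5:115349056-115349085 (Cox6a1) and chr15:102671070-102671099 (Atp5g2).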

How the data were processed

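Total RNA of the vHpc of OVX mice was sequenced as 75-bp single-end reads with a stranded kit. Per the methods of the study, the authors trimmed and filtered reads and aligned them to mm10 with TopHat2; reads were counted per gene symbol, and the annotation, the strand setting and the versions are not given in the sources used here. The deposited values are CPM, reads per 1000000 reads counted on genes. Every value was a whole multiple of what 1 read is worth (tolerance 0.01 reads), so read counts were recovered for count models. The members and lists were chosen with earlier results of these data known.

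Rows with a mean of at least 0.5 CPM were fitted on log2(CPM + 0.5) with limma (version 3.58.1, R 4.3.3) as 4 group means over all 10 libraries, with a mean-dependent prior (prior df 8.90, residual df 6). Two-sided p-values were adjusted by Benjamini-Hochberg over all 15081 genes, and a call needed an adjusted p below 0.05 and a fold change above 1.3. The added 0.5 shrinks the fold changes of genes with few reads. Unadjusted p-values come from the same fit. Alternatives were edgeR (4.0.16), DESeq2 (1.42.0), other scalings, pseudocounts and filters, a gene length trend (lowess of the log2 deviation on log exon length, removed in each library), a choroid plexus covariate, a replicate block and each library left out. The fit was tested on simulated data. Libraries are separate pools of animals per the labels; the labels state 3 replicates per group, and each WT group holds 2 here. No pair of replicates was within counting noise of each other (chi-square per degree of freedom 3.29 to 13.5), and intervals and floors cover counting error only.

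Exon lengths came from GENCODE annotation of GRCm38 for 23376 symbols directly and 670 through older symbols, and 375 had none. Level per length is CPM divided by the kb of exon of the gene's transcripts. A representative transcript of each member, the longest with a RefSeq link where available, was cut into 75-base windows. These were searched, with at most 2 mismatches, in transcripts of genes at other loci. Shared percentages refer to that transcript only.

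Named members were, by rule, those called, the 4 of complex I and 2 of each other complex with the smallest p for genotype over both treatments, the 3 smallest in every other comparison, paralog sets, the highest and lowest level of each complex, Cycs, complex II and the core of complex I. Not every result under this rule is reported here. Other names were taken after their values were seen, and the text says so where it gives them.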

Additional observations from a re-analysis of the deposited data

Results flagged for a closer look

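In vehicle-treated Het-Met replicate 1 the median log2 deviation of the members was 0.28 above the mean of the 10 libraries, far from the other 5 Het-Met libraries, with a gap of 0.628 of the range of the 6 (Dixon's 95% limit is 0.625). The same library was far from the others for complex I at 0.29 (0.654 of the range) and for the factors at 0.19 (0.636 of the range). Its slope of expression on log exon length, -0.0941, was the lowest of the 6, with a gap of 0.715 of the range. Of 20 such checks run on groups of 4 or 6 libraries, chance flags about 1 in 20, and the 3 results on the members are not independent of each other. The part of RNA quality or library preparation in these values was not tested.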

How the results depend on the processing

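The members called stayed at 0 in all 6 comparisons under every alternative that kept the call rule. At an unadjusted p below 0.05 with a fold change above 1.3 they were 2 under vehicle, 2 under E2, 1 for E2 in WT and 1 for the interaction. Shares of all genes at that looser rule were not taken. The gene length trend, once removed in each library, lowered the median log2 fold change of the members to 0.028 under vehicle, 0.029 under E2 and 0.019 over both treatments; the medians under the other scalings, filters, pseudocounts and tools over both treatments were 0.14 to 0.16. The same-numbered replicates did not pair (correlations of their deviations from -0.17 to 0.08). With the replicate block the median over both treatments was 0.17, with 49 members at an unadjusted p below 0.05 upwards and 0 called. The share of all genes was not taken for that fit either.

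Single genes near 0 changed sign for genotype over both treatments. Sdha was -0.0077 under median-of-ratios and -0.0079 under TMM scaling, -0.0072 by DESeq2, -0.00216 by edgeR and -0.028 with the length trend removed. That removal also gave -0.045 for Cox6b2, -0.0091 for Cox7a1, -0.014 for Atp5g3, -0.051 for Ndufa4l2, -0.023 for Ndufs1, -0.084 for Ndufs7, -0.019 for Ndufs8 and -0.029 for Atp5b. With the choroid plexus covariate the interaction of Ndufs8 was 0.070. Leaving out each library in turn gave -0.15 to 0.10 for Cox4i2, -0.37 to 0.028 for Cox6a2, -0.29 to 0.071 for Atp5g2, -0.011 to 0.048 for Sdha, -0.0091 to 0.060 for Ndufs1 and -0.030 to 0.14 for Ndufab1. The cause was not tested. Genes with few reads, such as Cox4i2, Atp5g2 and Atp5l, limit what can be said of their isoforms, and 2 WT libraries per treatment limit the precision within treatments.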
